A study of Mus musculus with 10 samples.

Results

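The genes described here encode the enzymes of cholesterol synthesis, the proteins that switch those enzymes on, and a few further targets of the same switch. There were 27 listed genes, chosen by name, and 26 of them had a probe set of their own among the 18193 genes measured. For each gene the brightest probe set over the 10 arrays stood for it. Acat2, the cytosolic thiolase gene that starts the pathway, was not analysed here.

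Transcripts were measured in primary keratinocytes, which form the outer layer of skin, cultured from mice labelled Sgpp1-/- (KO, 5 samples, numbered 8, 9, 10, 21 and 23) or Sgpp1+/+ (WT, 5 samples, numbered 1 to 5), with 1 array a sample. Sgpp1 encodes sphingosine-1-phosphate phosphatase 1, which removes the phosphate from the signalling lipid sphingosine-1-phosphate. Both groups were kept for 3 to 4 days in EMEM with 0.05 mM calcium and 8% fetal calf serum, and 6 µg of total RNA was labelled for an Affymetrix Mouse430_2 array. Mouse keratinocytes cultured at low calcium stay largely basal, and serum supplies the cells with lipoprotein cholesterol. The labels give neither the age of the mice, nor the kind of allele, nor whether the arrays of a group came from separate animals, so the p-values measure the spread between these arrays, which may be technical.

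Cholesterol is built from acetyl-CoA through mevalonate, the isoprenoid pyrophosphates, squalene and lanosterol, and keratinocytes make much of the sterol that goes into the lipid sheets of the skin barrier. When sterol in the endoplasmic reticulum runs low, the escort protein SCAP carries the SREBP transcription factors to the Golgi, where they are cut and released to the nucleus. The INSIG proteins hold SCAP back when sterol is plentiful. SREBP2 acts mainly on sterol genes and SREBP1 mainly on fatty acid genes.

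Values are log2 signals from RMA, so a difference of 1 is a 2-fold change, and differences are given as KO minus WT. Calls are limma calls at a Benjamini-Hochberg adjusted p of 0.05 over the 18193 genes, of which 419 (2.3%) were higher and 63 (0.346%) lower in KO. The medians of the arrays ran from 5.02 to 5.17. WT 1 was least like the rest (mean of its 9 correlations 0.955), against 0.967 to 0.977 for each other array, and its poly-A spike-in controls were the brightest (11.40, against 9.87 to 11.11 on the other 9). A separate array number in the labels runs from 6 to 10 in KO and from 1 to 5 in WT, so array number and genotype cannot be told apart. Sgpp1 itself read 8.82 ± 0.24 in KO and 7.67 ± 0.84 in WT (log2 signal, mean ± SD, n = 5 each), 2.22-fold higher in KO with a limma adjusted p of 0.102. Without WT 1, which read 6.25, the difference was 0.80 and passed (limma adjusted p = 0.0356), and on each of its 3 probe sets the KO values lay above the WT values. The knocked-out gene was thus not lower on the arrays labelled KO. The site of the disruption is not given in the labels, so these probe sets may lie outside it and cannot check the labels. Every direction below rests on the labels, and "KO" and "WT" mean the arrays labelled so. In bulk RNA, fewer cells of a type and less RNA per cell cannot be told apart.

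Most of the 26 genes read slightly higher in KO, and a single one passed the test. The mean was higher in KO for 24 genes and lower for 2, Dhcr7 and Acaca, against 47.6% higher over all genes, and the median difference was 0.25 against -0.01 over all genes. The gene that passed was Sqle, 1.56-fold higher in KO. That is 3.85% of the members, near the 2.3% of all genes called higher, and 0 members were called lower. By the unadjusted p, 7 of 26 members were under 0.05, all 7 higher in KO (Sqle, Hsd17b7, Msmo1, Ebp, Insig2, Sc5d and Cyp51), against 7.33% of all genes higher and 5.65% lower by the same measure. In 3 members, Sqle, Sc5d and Insig2, the 5 KO values lay above the 5 WT values, against 3.36% of all genes. The genes of one pathway are not independent of each other, and these counts were not tested.

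**Figure D1:**
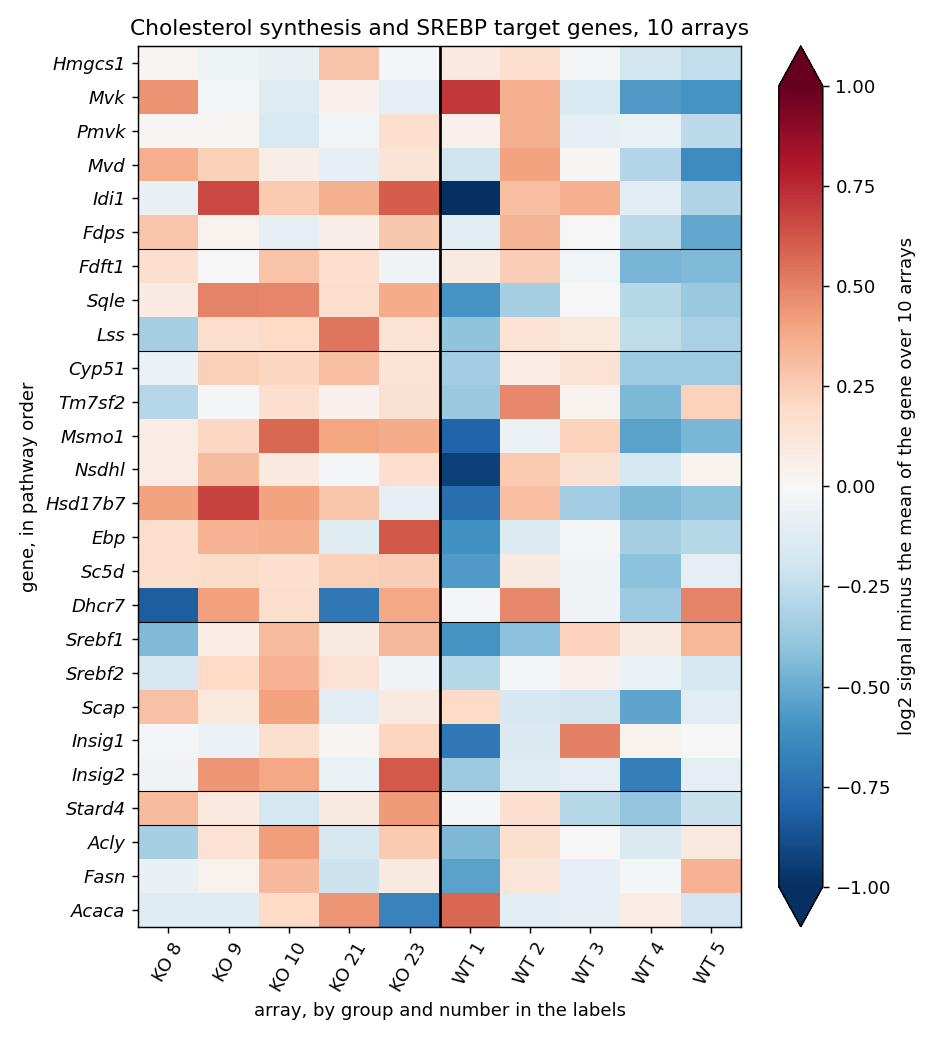
Log2 signal of the 26 genes (rows, in pathway order, with lines between the groups) on the 5 KO arrays (left) and the 5 WT arrays (right), relative to the mean of each gene over the 10 arrays. Red is higher and blue lower, and array WT 1 was the lowest of the 10 arrays for 13 of the 26 genes.

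The 6 mevalonate enzymes, which turn acetyl units into the isoprenoid building blocks, differed least among the sterol groups. Their median difference was 0.16 and 0 of 6 were called. Hmgcs1, encoding the synthase that makes HMG-CoA, was the brightest at 11.71 ± 0.14 in KO and 11.64 ± 0.18 in WT (mean log2 signal ± SD, n = 5 each), a difference of 0.07 with a 95% interval from -0.22 to 0.36. Its other probe sets, all dimmer, differed by -0.04, 0.23, 0.42 and 0.53, and 0 of them were called.

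Pmvk, encoding phosphomevalonate kinase, differed by 0.01 (interval -0.30 to 0.31), and Mvk, encoding mevalonate kinase, by 0.10 (-0.43 to 0.63). Mvd, whose product decarboxylates mevalonate pyrophosphate, differed by 0.29 (-0.11 to 0.69). Fdps, encoding farnesyl pyrophosphate synthase, differed by 0.22 (-0.13 to 0.58). In these 4 genes the KO and WT values overlapped, with WT 5 the lowest of the 10 arrays in each and no KO value above the highest WT value. Dimmer probe sets differed by 0.40 for Mvd and 0.04 for Mvk. One for Fdps, far below the array medians at 2.08 in KO and 2.03 in WT, differed by 0.05. None of these was called.

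Idi1, encoding the isomerase that interconverts the isoprenoid pyrophosphates, had the largest difference of the 26 genes, 0.73. Much of that difference rested on a single array. Idi1 read 9.25, 9.98, 9.58, 9.67 and 9.93 on KO 8, 9, 10, 21 and 23, against 7.26, 9.62, 9.68, 9.20 and 9.02 on WT 1 to 5. Apart from WT 1 the groups overlapped, and without WT 1 the difference was 0.30 (SE 0.19, limma adjusted p = 0.512). A second Idi1 probe set differed by 0.43.

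The 3 genes from squalene to lanosterol include the one call. Squalene synthase, encoded by Fdft1, commits the pathway to sterols, squalene epoxidase (Sqle) is a rate-controlling oxidation, and lanosterol synthase (Lss) closes the rings. Sqle read 9.02, 9.44, 9.43, 9.12 and 9.31 on KO 8, 9, 10, 21 and 23, against 8.34, 8.61, 8.94, 8.66 and 8.57 on WT 1 to 5. The groups did not overlap, and KO 8, the lowest KO array, lay 0.09 above WT 3, the highest WT array. The difference was 0.64 (SE 0.15), a 1.56-fold rise, with a limma adjusted p of 0.0353. It was a thin call: with 1 array left out the difference stayed between 0.57 and 0.72, but the adjusted p ran from 0.0255 to 0.121. The call held without KO 8 (0.0336) or WT 3 (0.0255) and was lost without each of the other 8 arrays. Sqle has 1 probe set, so no other reads the gene, and with p adjusted over the 34945 probe sets with 1 gene it just missed the threshold (limma adjusted p = 0.05003).

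Fdft1 read 9.88 ± 0.13 in KO and 9.65 ± 0.32 in WT, a difference of 0.24 (limma adjusted p = 0.633). Lss read 9.83 ± 0.31 in KO and 9.54 ± 0.25 in WT (mean log2 signal ± SD, n = 5 each), a difference of 0.29 (limma adjusted p = 0.569). Neither gene's groups separated, although 3 of 5 KO arrays lay above the highest WT array for Lss, with KO 21 at 10.22 the highest. On dimmer probe sets Fdft1 differed by 0.42, 0.11 and -0.01, and Lss by 0.27 and 0.11, with no call.

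The 8 enzymes after lanosterol, which strip methyl groups from the ring and move its double bonds to give cholesterol, had the largest median difference of the groups with more than 1 gene, 0.37. The mean was higher in KO for 7 of 8, 0 of 8 were called, and 5 of 8 had an unadjusted p under 0.05. Msmo1, encoding the sterol C4-methyl oxidase, read 8.84, 8.97, 9.34, 9.16 and 9.14 on KO 8, 9, 10, 21 and 23, against 7.96, 8.71, 8.99, 8.23 and 8.31 on WT 1 to 5. Its WT 3 lay among the KO values, and the difference was 0.65 (SE 0.19, limma adjusted p = 0.121). Without WT 3 it was 0.79 and passed (limma adjusted p = 0.0386), and without WT 1 it was 0.53 and did not (0.182). Another Msmo1 probe set differed by 0.07.

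Hsd17b7, encoding the reductase of the same C4-demethylation steps, read 9.48, 9.76, 9.48, 9.36 and 8.98 on KO 8, 9, 10, 21 and 23, against 8.32, 9.38, 8.73, 8.63 and 8.67 on WT 1 to 5. WT 2 stood within the KO values and the other WT arrays below all 5 of them. The difference was 0.66 (SE 0.20, limma adjusted p = 0.130), and without WT 2 it was 0.82 (limma adjusted p = 0.0284). A dimmer Hsd17b7 probe set, at 7.25 ± 0.25 in KO and 6.46 ± 0.30 in WT (log2 signal, mean ± SD, n = 5 each), did not overlap between the groups and passed over the 34945 probe sets with 1 gene (difference 0.78, limma adjusted p = 0.0432). The remaining Hsd17b7 probe sets differed by 0.71, with overlap (limma adjusted p = 0.0832), and, near the array medians, by 0.01. In that test the brightest probe set did not pass either (limma adjusted p = 0.161).

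Ebp encodes the isomerase that shifts the sterol ring's double bond. It read 8.14, 8.31, 8.32, 7.85 and 8.59 on KO 8, 9, 10, 21 and 23, against 7.36, 7.82, 7.95, 7.63 and 7.68 on WT 1 to 5, so that KO 21 alone fell within the WT values. The difference was 0.55 (SE 0.16, limma adjusted p = 0.124).

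Sc5d encodes the desaturase that acts next to last on this branch. Its KO values were tightly grouped, at 8.56, 8.57, 8.55, 8.62 and 8.63 on KO 8, 9, 10, 21 and 23, against 7.82, 8.48, 8.35, 7.98 and 8.29 on WT 1 to 5. The groups did not overlap, yet the difference of 0.40 (SE 0.14) did not pass (limma adjusted p = 0.218). On dimmer Sc5d probe sets, at 5.11 and 4.08 in KO, the groups overlapped. The differences there were 0.34 and 0.52 (limma adjusted p = 0.472 and 0.581). Cyp51, encoding the lanosterol demethylase, differed by 0.33 (limma adjusted p = 0.350), with other probe sets at 0.42 and 0.46.

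The remaining genes of this branch showed less. Nsdhl, encoding the decarboxylating sterol dehydrogenase, differed by 0.26, and by 0.06 without WT 1. Tm7sf2, encoding a sterol C14-reductase, was the dimmest member at 5.43 ± 0.18 in KO and 5.41 ± 0.40 in WT (log2 signal, mean ± SD, n = 5 each), close to the array medians, where RMA compresses differences. Dhcr7, whose product carries out the last step to cholesterol, read 8.83, 10.06, 9.83, 8.94 and 10.05 on KO 8, 9, 10, 21 and 23, against 9.64, 10.14, 9.62, 9.29 and 10.16 on WT 1 to 5. KO 8 and KO 21 were the lowest arrays, the other 3 KO arrays lay within the WT range, and the difference was -0.23 (interval -0.82 to 0.37).

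**Figure D2:**
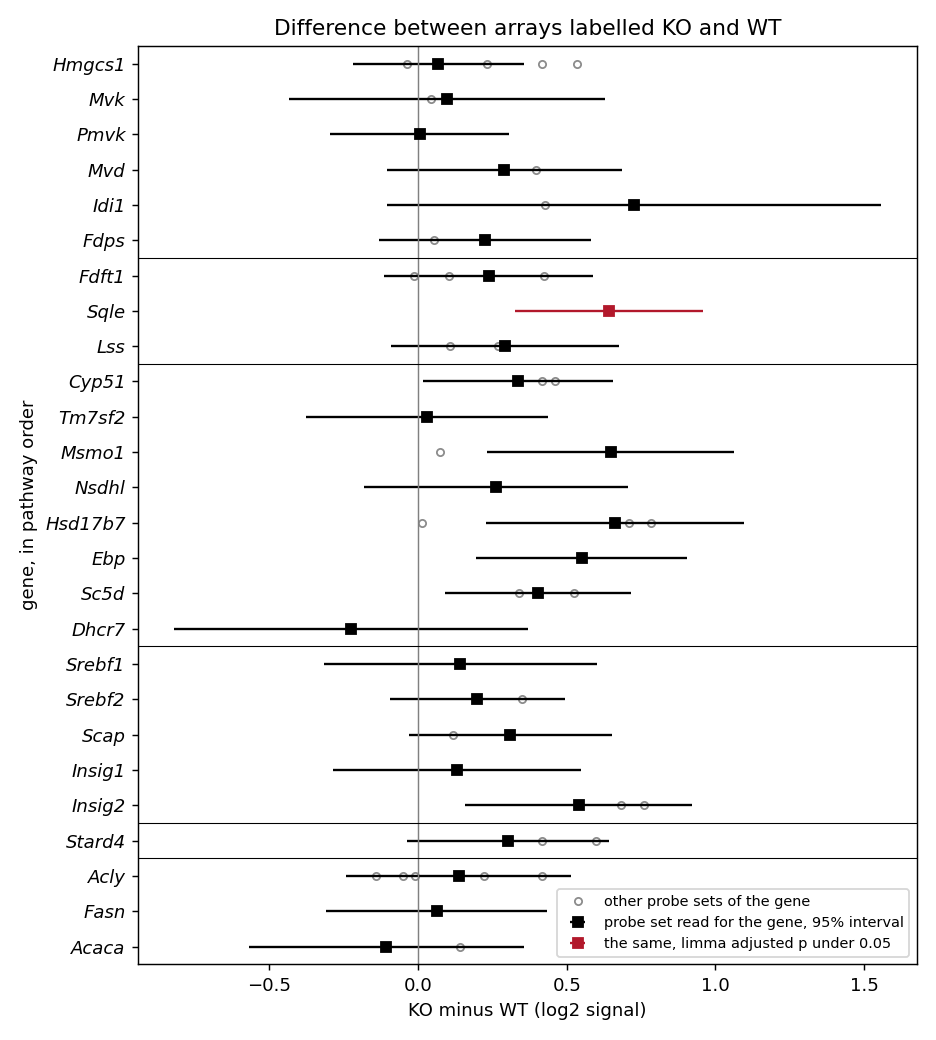
KO minus WT difference in log2 signal for the 26 genes (filled squares with 95% intervals from limma) and for their other probe sets (open circles), in pathway order. Sqle, in red, passed the threshold and Idi1 has the widest interval, from -0.11 to 1.56.

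**Figure D3:**
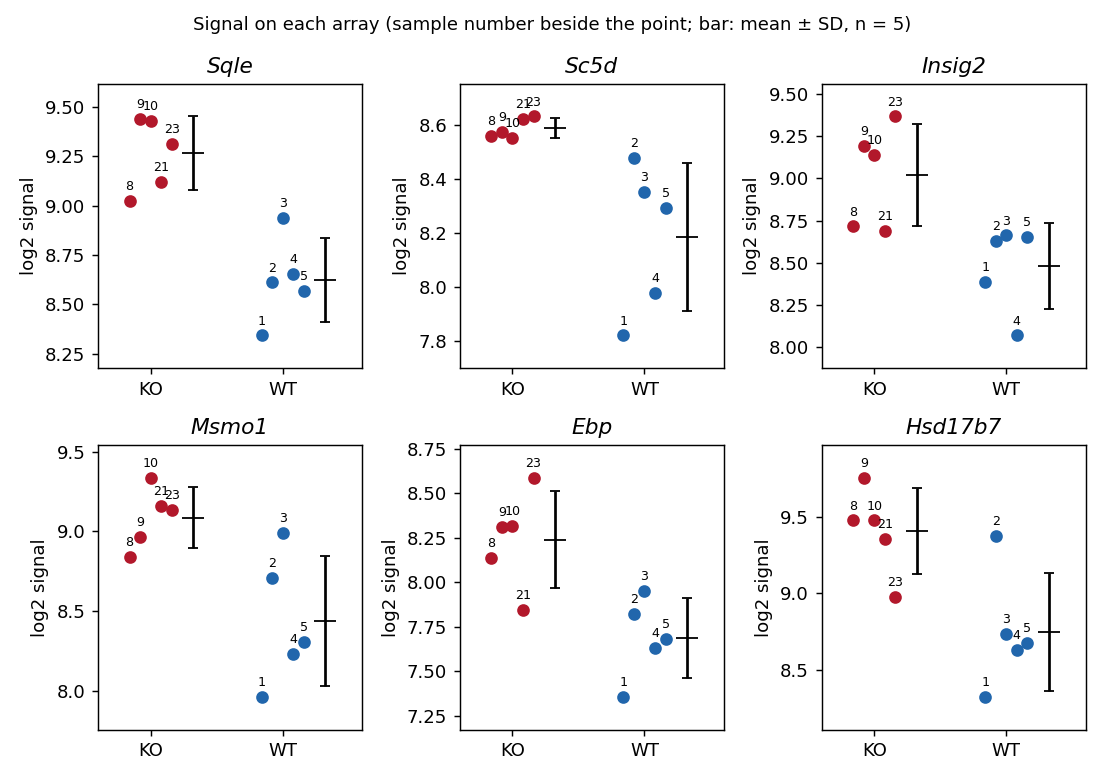
Log2 signal on each array for the 6 genes with the smallest limma p, KO left and WT right, each point marked with its sample number, and mean ± SD (n = 5) beside it. Sqle, Sc5d and Insig2 do not overlap between the groups, while WT 3 (Msmo1), KO 21 (Ebp) and WT 2 (Hsd17b7) cross over.

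The genes that control the pathway did not pass. The 5 were higher in KO in the mean, with a median difference of 0.20. Srebf2 and Srebf1 encode the transcription factors themselves, and Scap encodes their escort. Srebf2 read 8.49 ± 0.20 in KO and 8.29 ± 0.13 in WT, and Srebf1 read 7.68 ± 0.31 in KO and 7.53 ± 0.41 in WT (log2 signal, mean ± SD, n = 5 each). Their differences were 0.20 (interval -0.10 to 0.49) and 0.14 (-0.32 to 0.60), and Scap differed by 0.31 (-0.03 to 0.65). Dimmer probe sets differed by 0.35 for Srebf2 and 0.12 for Scap, and neither was called. The SREBP proteins are regulated by cleavage, which transcript levels do not show.

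Both Insig genes encode proteins that retain SCAP, and the intervals of their differences overlapped (0.16 to 0.92 for Insig2 and -0.29 to 0.55 for Insig1). Insig2 read 8.72, 9.19, 9.14, 8.69 and 9.37 on KO 8, 9, 10, 21 and 23, against 8.39, 8.63, 8.66, 8.07 and 8.65 on WT 1 to 5. The groups did not overlap, by a margin of 0.03, and the difference of 0.54 (SE 0.18) did not pass (limma adjusted p = 0.167). Its other probe sets differed by 0.68, again without overlap, and by 0.76. Insig1, itself a strong SREBP target, read 7.85, 7.81, 8.02, 7.88 and 8.08 on KO 8, 9, 10, 21 and 23, against 7.15, 7.72, 8.37, 7.90 and 7.86 on WT 1 to 5. WT 3 was the highest array and WT 1 the lowest, and the difference was 0.13 (interval -0.29 to 0.55), or -0.03 without WT 1. Whether the Insig2 and Insig1 differences differ from each other was not tested.

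Stard4, encoding a cytosolic sterol carrier, differed by 0.30 (limma adjusted p = 0.464), and its dimmer probe sets by 0.42 and 0.60. The 3 fatty acid genes had the smallest median difference of the groups, 0.06, and 0 of 3 were called. Fasn, the fatty acid synthase gene, read 7.94 ± 0.20 in KO and 7.88 ± 0.32 in WT (mean log2 signal ± SD, n = 5 each), a difference of 0.06 (interval -0.31 to 0.43). Acly, encoding the ATP citrate lyase that supplies cytosolic acetyl-CoA, differed by 0.14 (-0.24 to 0.52), and Acaca, encoding acetyl-CoA carboxylase, by -0.11 (-0.57 to 0.35). The signs varied with the probe set: another for Acaca differed by 0.14, and others for Acly by -0.14 and 0.42. Dim Acly probe sets differed by 0.22, -0.05 and -0.01, and none of these was called. Whether these differences differ from those of the sterol genes was not tested.

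Read as groups, the arrays of one label did not behave as 1 block. The mean of the 8 enzymes after lanosterol, relative to the 10-array mean, was -0.03, 0.30, 0.27, 0.05 and 0.25 on KO 8, 9, 10, 21 and 23, against -0.55, 0.19, 0.02, -0.38 and -0.10 on WT 1 to 5 (log2). KO 8 and KO 21 were the low KO arrays, and WT 2 read higher than both. The mean of the 6 mevalonate enzymes ran from -0.02 to 0.18 in KO and from -0.42 to 0.32 in WT, where WT 2 was the highest of the 10 arrays and WT 5 the lowest. Over the 26 genes the mean ran from 0.01 to 0.21 in KO and from -0.35 to 0.11 in WT. The spread was larger in WT for 18 of 26 genes, 69.2%, against 62.0% of all genes, with a median SD of 0.20 in KO and 0.31 in WT.

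**Figure D4:**
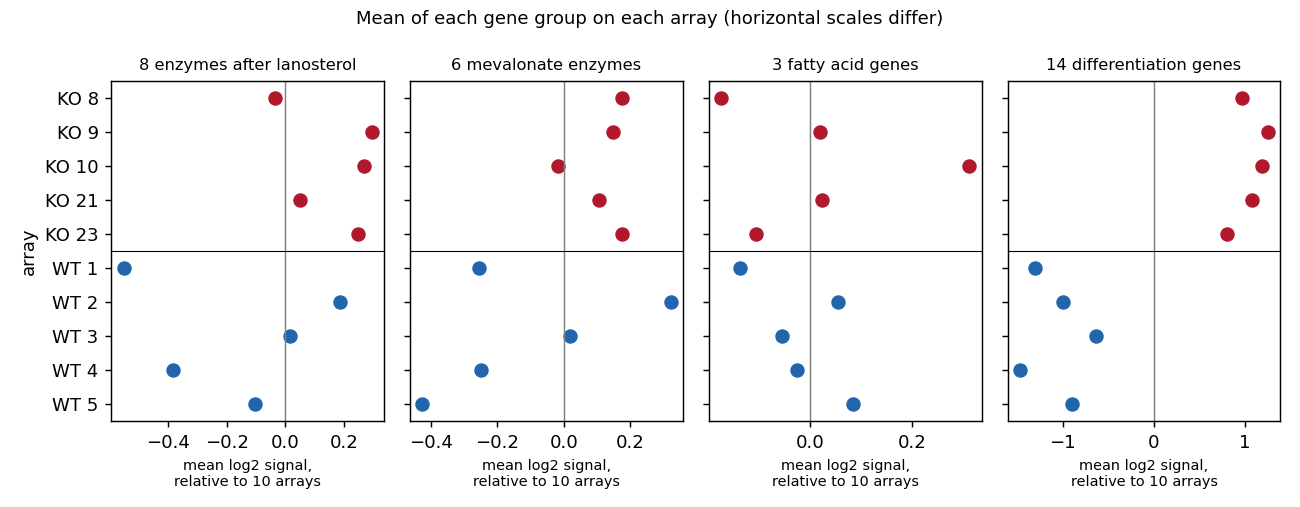
Mean log2 signal of 4 gene groups on each array, relative to the mean over the 10 arrays, KO arrays above the line and WT arrays below it. The differentiation genes separate the labels, from 0.80 to 1.26 in KO and from -1.47 to -0.64 in WT, while the sterol and fatty acid groups overlap.

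Array WT 1 read low for the group as well as for single genes. Its mean was the lowest of the 10 arrays over the 26 genes, at -0.35, and over the 8 enzymes after lanosterol, at -0.55. WT 1 was the lowest of the 10 arrays for 13 of the 26 genes and the highest for 2, Mvk and Acaca. Without it, 22 of 26 members were higher in the mean in KO (51.6% of all genes), 7 had an unadjusted p under 0.05 and were higher (8.43% of all genes), and the median difference was 0.25, as with it. The Gapdh controls, which read both ends of 1 transcript, gave a 3′ minus 5′ difference of 1.72 on WT 1, within the 1.63 to 2.10 of the other 9 arrays, and the corresponding actin difference was 0.17, against 0.16 to 0.29. The poly-A spike-ins were brightest on WT 1, WT 2 and KO 8, and with these 3 arrays left out Sqle differed by 0.60 and did not pass (limma adjusted p = 0.0822). In the same setting the median difference of the 26 genes was 0.39, and 14 of them had an unadjusted p under 0.05 and were higher in KO, against 9.05% of all genes. By the mean of the 26 genes, KO 8 was the lowest KO array and WT 2 the highest WT array. Leaving those out widens the gap between the groups by itself, and leaving out WT 1, the lowest WT array, narrows it. The part of array quality in these results was not tested.

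**Figure D5:**
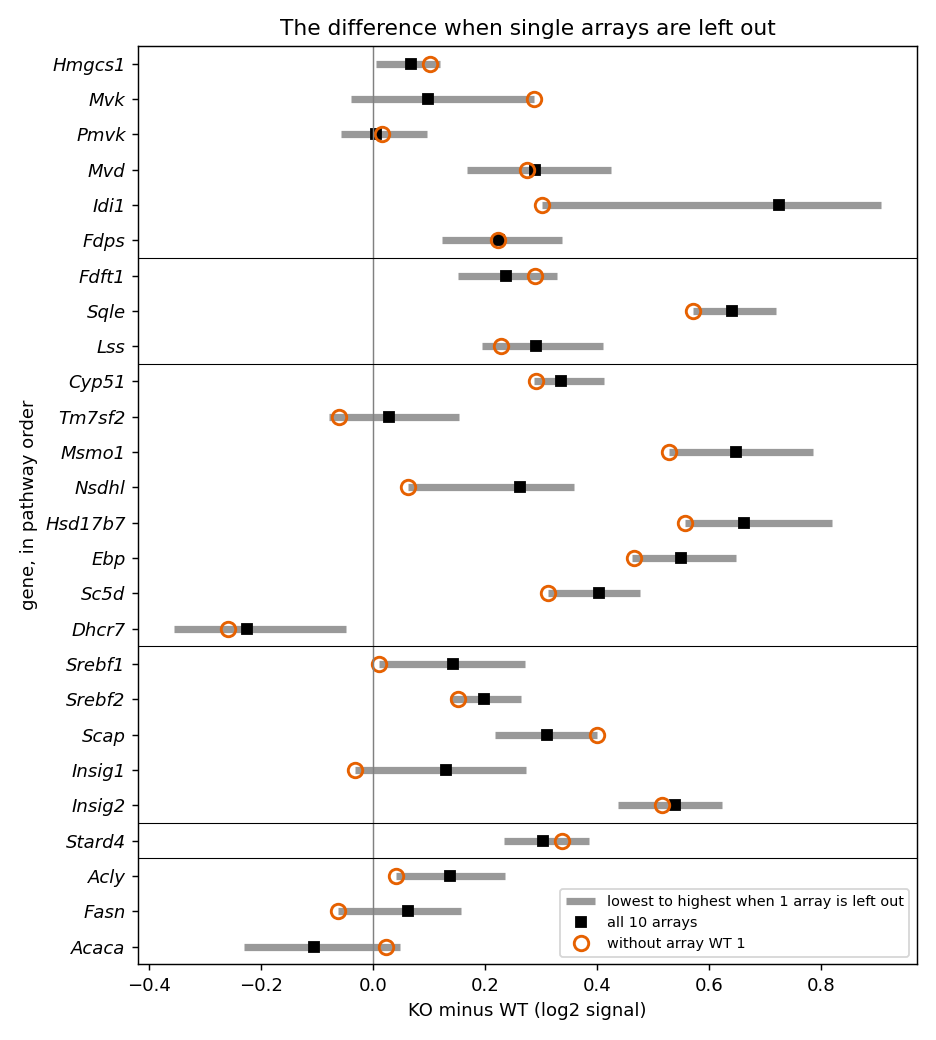
KO minus WT difference of each gene with the 10 arrays (squares), its range when 1 array is left out (grey bars) and its value without WT 1 (orange circles), on the log2 scale. Idi1 moved most, to 0.30 without WT 1, while Sqle stayed between 0.57 and 0.72.

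The sequence before the start of each gene is shown for the 5 members with the smallest p among those with a RefSeq promoter entry, and for Hmgcs1, added after the search because it alone, of the 22 genes with an entry, holds a sterol response element match. The 4 genes with no entry used here are Sqle, Fdft1, Fdps and Stard4. SREBPs bind the sterol response element and act together with NF-Y, which binds the CCAAT box, and Sp1, which binds the GC box. Capitals mark matches on either strand to TCACNCCAC (sterol response element), CCAAT (the NF-Y box), GGGCGG (GC box) and CACGTG (E box, which reads alike on both strands). Each run is the 250 bases before the first listed start, 5′ to 3′ on the gene's strand, from RefSeq on GRCm38.p6. Msmo1 lies at chr8:64733579-64733828, Ebp at chrX:8193513-8193762, Hsd17b7 at chr1:169969206-169969455, Insig2 at chr1:121332590-121332839 (the first of 3 listed starts) and Sc5d at chr9:42264301-42264550, each on the minus strand, and Hmgcs1 at chr13:119690101-119690350 on the plus strand.
Msmo1: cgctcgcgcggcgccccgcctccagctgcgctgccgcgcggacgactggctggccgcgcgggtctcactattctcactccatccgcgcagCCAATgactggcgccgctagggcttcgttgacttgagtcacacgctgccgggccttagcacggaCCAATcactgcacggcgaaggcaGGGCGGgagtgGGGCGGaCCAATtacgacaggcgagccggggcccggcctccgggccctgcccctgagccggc
Ebp: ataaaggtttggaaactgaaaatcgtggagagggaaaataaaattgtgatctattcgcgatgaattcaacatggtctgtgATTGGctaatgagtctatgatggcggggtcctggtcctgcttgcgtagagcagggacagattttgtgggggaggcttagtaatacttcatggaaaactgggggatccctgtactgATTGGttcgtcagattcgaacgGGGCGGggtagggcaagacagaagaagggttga
Hsd17b7: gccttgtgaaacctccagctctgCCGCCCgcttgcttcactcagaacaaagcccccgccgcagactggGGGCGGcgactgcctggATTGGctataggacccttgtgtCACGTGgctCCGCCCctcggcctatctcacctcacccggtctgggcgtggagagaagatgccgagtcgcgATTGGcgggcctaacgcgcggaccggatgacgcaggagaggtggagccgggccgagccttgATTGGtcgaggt
Insig2: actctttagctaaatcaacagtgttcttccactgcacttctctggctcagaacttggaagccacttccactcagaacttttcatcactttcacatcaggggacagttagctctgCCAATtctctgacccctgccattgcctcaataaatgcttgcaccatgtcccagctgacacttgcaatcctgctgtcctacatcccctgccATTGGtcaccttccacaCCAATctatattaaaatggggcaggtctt
Sc5d: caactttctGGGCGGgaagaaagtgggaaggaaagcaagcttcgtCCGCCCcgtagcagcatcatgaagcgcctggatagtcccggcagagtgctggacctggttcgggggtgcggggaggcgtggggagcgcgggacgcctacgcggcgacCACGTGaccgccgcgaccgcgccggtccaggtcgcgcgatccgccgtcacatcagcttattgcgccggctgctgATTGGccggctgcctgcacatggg
Hmgcs1: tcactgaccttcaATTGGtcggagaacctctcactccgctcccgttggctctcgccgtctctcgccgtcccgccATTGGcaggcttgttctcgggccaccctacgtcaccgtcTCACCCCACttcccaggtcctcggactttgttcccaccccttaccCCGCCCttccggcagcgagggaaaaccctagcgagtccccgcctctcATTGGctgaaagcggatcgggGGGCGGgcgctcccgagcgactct

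The CCAAT box was the motif these windows shared. It was found in 18 of the 22 windows, 81.8%, against 35.7% of the 14452 windows of genes measured on the array, and Msmo1, Hsd17b7, Insig2 and Hmgcs1 each held 3. The GC box was found in 16 of 22, 72.7%, against 49.9%. The E box was found in 3, those of Hsd17b7, Insig1 and Sc5d, 13.6% against 7.56%. The sterol response element as spelled was found in Hmgcs1 alone, 137 to 129 bases before the start, against 1.02% of the windows on the array. Hmgcs1, with that match, differed by 0.07 between KO and WT on its brightest probe set and by -0.04 to 0.53 on the others. The other members with an entry, none of which holds the match, ranged from -0.23 (Dhcr7) to 0.73 (Idi1). With 1 gene holding the match, these values cannot show whether it goes with a difference. A match is a description of these letters in this window and not a bound site.

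Genes around the pathway were read as 4 further lists, with 0 to 2 genes called in each. Of 15 measured further SREBP targets (4 of 19 listed were not analysed here), 1 rose and 1 fell. The mean was higher in KO for 10 of the 15 (47.6% of all genes), with a median difference of 0.05. By the unadjusted p, 1 was under 0.05 and higher in KO and 3 were lower, against 7.33% and 5.65% of all genes. Their list mean ran from 7.31 to 7.73 in KO and from 7.22 to 7.81 in WT. Me1, encoding the malic enzyme that supplies NADPH for lipid synthesis, read 8.29, 8.76, 8.71, 8.49 and 8.44 on KO 8, 9, 10, 21 and 23, against 7.36, 7.93, 7.79, 7.42 and 7.28 on WT 1 to 5. Every KO array lay above every WT array, and the 1.97-fold rise (difference 0.98, SE 0.16, limma adjusted p = 0.00506) held without each array in turn. Its second probe set differed by 1.31 and passed as well.

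Fads2, encoding a fatty acid desaturase, went the other way, at 6.35, 6.05, 6.12, 5.84 and 6.61 on KO 8, 9, 10, 21 and 23, against 7.59, 7.54, 7.39, 7.01 and 6.83 on WT 1 to 5. Every KO array lay below every WT array, and the level was 2.11-fold lower in KO (difference -1.08, SE 0.19, limma adjusted p = 0.00813). It kept its call without each array in turn and lost it without WT 1, WT 2 and KO 8 (difference -0.92, limma adjusted p = 0.0632). Other Fads2 probe sets, again without overlap, differed by -0.77, which passed, and by -0.60, which did not (limma adjusted p = 0.0236 and 0.204). Fads1, its neighbour in the pathway, differed by -0.91, and Tmem97, encoding a sterol-responsive membrane protein, by -0.41, and neither passed (limma adjusted p = 0.218 and 0.359).

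Of 11 measured genes that process SREBPs or govern the degradation of sterol enzymes and INSIGs (2 of 13 not analysed here), 1 rose. Erlin1, encoding a lipid raft protein of the endoplasmic reticulum that binds cholesterol, read 8.53, 8.71, 9.18, 9.04 and 8.61 on KO 8, 9, 10, 21 and 23, against 7.36, 8.11, 8.10, 7.95 and 8.06 on WT 1 to 5. The groups did not overlap and the rise was 1.86-fold (difference 0.90, limma adjusted p = 0.0201). The call was lost without KO 9 (0.0525), KO 10 (0.0656), KO 21 (0.0558) or WT 4 (0.052), and on a dimmer probe set the difference was 0.68, short of the threshold. The ubiquitin ligase genes Syvn1 and Rnf145 differed by 0.68 and 0.45 and did not pass (limma adjusted p = 0.0607 and 0.339). A dimmer Syvn1 probe set, at 5.99 in KO and 5.88 in WT, differed by 0.10 with overlap (limma adjusted p = 0.910).

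Of 16 measured LXR targets and sterol handling genes (2 of 18 not analysed here), 1 rose. LXR is the nuclear receptor that responds to excess sterol. Abcg1, encoding a sterol exporter, read 7.31, 8.20, 8.30, 6.995 and 7.73 on KO 8, 9, 10, 21 and 23, against 6.23, 6.42, 6.36, 6.63 and 7.13 on WT 1 to 5. KO 21 lay below WT 5, and the rise was 2.22-fold (difference 1.15, SE 0.26, limma adjusted p = 0.0324). It held without KO 8 (0.035), KO 21 (0.0139) or WT 5 (0.0192) and was lost without each of the other 7 arrays, where the adjusted p ran up to 0.109. A dim second Abcg1 probe set, at 3.46 in KO and 3.24 in WT, differed by 0.22 with overlap (limma adjusted p = 0.741). Cyp27a1, a sterol hydroxylase gene, and Sult2b1, encoding the sulfotransferase that makes cholesterol sulfate in the epidermis, differed by 0.64 and 0.65 and did not pass (limma adjusted p = 0.0997 and 0.195). Of 11 measured genes that use isoprenoids (1 of 12 not analysed here), 0 were called, and their median difference was -0.05. Those with the smallest p, the farnesyltransferase subunit gene Fnta and Rabggta, encoding a subunit of the Rab prenyltransferase, differed by 0.26 and 0.19.

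Other programmes of the culture moved with the labels at the same time. For 9 of 10 keratinocyte identity genes the mean was higher in KO. Their median difference was 0.21, close to the 0.25 of the 26 members. Of the 10 identity genes, 0 were called and 1 had an unadjusted p under 0.05. The basal keratin genes Krt5 and Krt14 among them read 12.73 ± 0.10 and 12.72 ± 0.04 in KO, against 12.78 ± 0.06 and 12.69 ± 0.14 in WT (log2 signal, mean ± SD, n = 5 each). Of 14 differentiation genes 14 were called higher in KO, led by Hrnr, Lce1c and Dsc1 (differences 3.52, 4.18 and 2.42), and the list mean lay between 9.83 and 10.28 in KO and between 7.55 and 8.38 in WT. Of 11 measured cell cycle genes 11 were lower in the mean in KO, 9 had an unadjusted p under 0.05 and 2 were called lower, Prc1 and Mki67 (differences -0.94 and -0.56). With 1 array left out, Prc1 kept its call in 3 of 10 fits (without KO 8, KO 23 or WT 3) and Mki67 in 2 of 10 (without KO 8 or KO 21), with limma adjusted p up to 0.104 and 0.136. Kif20a differed by -0.94 (limma adjusted p = 0.0538), and the list had a mean of 7.63 to 8.68 in KO and 8.43 to 9.15 in WT.

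Among sebocytes, the lipid-making cells of the hair follicle unit, 2 of 8 measured markers were called higher, Cidea and Acsbg1 (differences 1.84 and 1.49, called in 10 and 8 of 10 fits with 1 array left out), while Mc5r and Elovl3 read at most 3.16 and 2.79 on any array, and the most abundant marker, Krt79, differed by -0.60. Of the 8 sebocyte markers, 4 were higher and 4 lower in the mean in KO, with a median difference of -0.02. The sebocyte list mean, which includes Cidea and Acsbg1, was 4.53 to 5.05 in KO and 4.23 to 4.69 in WT. Of 6 melanocyte markers 0 were called, but 6 were higher in the mean in KO, with a median difference of 0.72. Their list mean was 8.14 to 9.73 in KO and 6.61 to 9.89 in WT, lowest on WT 1, with Tyrp1 the most abundant. Of 8 fibroblast markers 0 were called, but 8 were lower in the mean in KO, with a median difference of -0.40. Their list mean was 5.52 to 7.44 in KO and 5.45 to 8.95 in WT. Col1a1, the most abundant, read 12.48 and 12.21 on WT 3 and WT 4 and at most 8.80 on the other WT arrays. Adipocyte markers, with 0 of 5 called, had a mean of 4.25 to 4.62 in KO and 4.00 to 4.56 in WT, with Adipoq at most 2.83 on any array. Fabp4, the most abundant of them, differed by 1.36 (limma adjusted p = 0.263), and without WT 5, which read 8.98 against 5.92 to 6.16 on the other WT arrays, it differed by 1.95 and passed (limma adjusted p = 0.0018). Immune markers, with 0 of 7 called, had a mean of 4.20 to 4.86 in KO and 4.31 to 4.75 in WT, with Lyz2 the most abundant. The part of differentiation, of proliferation or of the other cell types in the sterol gene differences was not tested.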

How the data were processed

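Total RNA of cultured mouse keratinocytes was hybridised to 10 one-colour Affymetrix Mouse430_2 arrays, per the labels' protocols. The deposited table holds 1 log2 signal for each probe set on each array. The submitters' processing notes name RMA, and its version is not given in the sources used here. RMA gives all arrays a common distribution and compresses dim differences. The 10 value columns were used as deposited and 0 were left out.

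Of 45101 probe sets, 64 were Affymetrix controls, 34945 had 1 gene, 932 several and 9160 none in the platform annotation, and the identifiers of 34741 were found in the RefSeq table of GRCm38.p6, used for current symbols. The probe set with the highest mean stood for each of 18193 genes. KO was compared with WT in limma 3.58.1 (R 4.3.3; lmFit and eBayes, two-sided, Benjamini-Hochberg over 18193 genes, threshold 0.05), with no filter and no covariate. The fit was tested on simulated data. SE is limma's moderated standard error and intervals are its 95% intervals, unadjusted. Precision is limited by having 5 arrays a group.

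The members, the other lists and the alternatives were chosen with earlier results of these data known. Named are the members, Sgpp1, in the 4 pathway lists up to 4 called genes and the 2 next by p, up to 3 genes of the differentiation and cell cycle lists, and the most abundant marker of each other cell type. Krt5, Krt14, Cidea, Acsbg1, Mc5r, Elovl3 and Adipoq were named after their values were seen. Alternatives were other probe set choices, a minimum mean of 5, eBayes with trend, array weights, quantile normalization, median centring and leaving out arrays.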

Additional observations from a re-analysis of the deposited data

Results flagged for a closer look

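In 5 of 108 groups of 5 arrays tested, 1 array stood apart by Dixon's gap ratio (critical value 0.71), and chance alone flags about 1 in 20 groups. KO 21 read 11.96 for Hmgcs1, against 11.60 to 11.69 on the other KO arrays. WT 1 read 7.26 for Idi1, against 9.02 to 9.68 on the other WT arrays. WT 1 was also low for Erlin1, at 7.36 against 7.95 to 8.11, and for Rnf145, at 8.15 against 8.94 to 9.10. WT 5 read 8.98 for the adipocyte marker Fabp4, against 5.92 to 6.16 on the other WT arrays.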

How the results depend on the processing

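No paired analysis was possible because the labels give KO and WT no shared replicate numbers. With 1 array left out, limma called 264 to 419 genes higher and 13 to 107 lower in KO, and 0 to 2 members higher and 0 lower; Sgpp1 differed by 0.80 to 1.32. Array weights called 877 genes higher, 561 lower and 4 members higher (Ebp, Hsd17b7, Insig2 and Sqle), and Sgpp1 then differed by 0.77 and passed (adjusted p = 0.0383). Median centring called 40 genes lower. Without WT 1, WT 2 and KO 8, 0 members were called, with a median member difference of 0.39. Of these arrays, KO 8 was the lowest KO array and WT 2 the highest WT array by the mean of the members. With the most variable probe set of each gene, Sqle lost its call (adjusted p = 0.0603) and Hsd17b7 passed (0.0463). Signs turned for genes near 0. Array weights gave 0.080 for Dhcr7, -0.066 for Insig1, 9.0e-05 for Acaca and -0.028 for Krt14. Leaving out the 3 arrays gave 0.031 for Dhcr7, -0.019 for Srebf1, -0.10 for Insig1, -0.029 for Fasn, 0.030 for Acaca and -0.048 for Krt14. Quantile normalization gave -0.025 for Pmvk and -0.046 for Krt14, and the mean of probe sets 0.017 for Acaca. With 1 array left out, Mvk ranged from -0.040 to 0.29, Pmvk from -0.058 to 0.10, Tm7sf2 from -0.080 to 0.15, Insig1 from -0.033 to 0.27, Fasn from -0.063 to 0.16, Acaca from -0.23 to 0.047, Krt14 from -0.024 to 0.062 and Col1a1 from -0.77 to 0.32. The causes were not tested.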
